A study of Homo sapiens with 2 samples.

Results

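The genes described here drive cells into and out of mitosis: the kinase gene CDK1, the cyclin genes CCNA2, CCNB1 and CCNB2, the CDK subunit genes CKS1B and CKS2, the anaphase-promoting complex activator gene CDC20, the ubiquitin-conjugating enzyme gene UBE2C, the securin gene PTTG1 and the separase gene ESPL1. They were taken by name, and all 10 were among the 1947 genes of the deposited table. RNA sequencing of polyadenylated RNA compared C4-2 cells given ebastine, an antihistamine, with C4-2 cells given vehicle. C4-2 is an established human prostate cancer line derived from LNCaP. Cells of both groups were at passage 10 to 15 and grew in RPMI-1640 with serum. Neither the concentration of ebastine nor the duration of treatment is given in the sources used here. There was 1 library per group, so every ratio is a difference between 2 libraries without an error, and no p-value for the treatment was computed. The series title names EZH2, a Polycomb histone methyltransferase, as what the drug acts on.

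CDK1 is the kinase that starts mitosis, and it is active only when bound to a cyclin. Cyclin A2 acts in S phase and G2, and cyclins B1 and B2 act from G2 until anaphase. CKS proteins are small subunits that help the kinase find targets already carrying phosphates. At the end of metaphase, CDC20 switches on the anaphase-promoting complex (APC/C), a ubiquitin ligase, and UBE2C passes ubiquitin to its targets. Securin and cyclin B are then destroyed, separase is set free, and it cuts the cohesin rings that hold sister chromatids together. Transcripts of most of these genes are known to be most abundant in G2 and mitosis in cycling cells.

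The table lists only genes that passed the authors' own filter: no deposited p-value exceeded 0.0499, and the q-values imply about 13714 tested genes, of which 14.2% are listed. Of the 1947 genes, 1768 averaged 1 FPKM or more (fragments scaled to transcript length and library size), and all 10 genes were among them. Medians and shares below are therefore set against listed genes, not against all genes. The median level of listed genes was 9.49 FPKM in the ebastine library and 10.5 FPKM in the vehicle library. Of 9 prostate luminal markers 4 were listed. KLK3 was at 1599 FPKM with ebastine and 2476 FPKM with vehicle, KLK2 at 272 FPKM with ebastine and 465 FPKM with vehicle, and TMPRSS2 at 289 FPKM with ebastine and 362 FPKM with vehicle. FOLH1 was at 840.4 FPKM with ebastine and 495 FPKM with vehicle. Of 10 markers of leukocytes, fibroblasts, endothelium and basal cells 0 were listed. Sequencing depth is unknown, so no counting interval can be given.

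All 10 genes had lower FPKM in the ebastine library as the authors scaled it (9 after the centring described below, when CKS2 turned to 0.055), as did 57% of the 1768 listed genes. The log2 ratio used, log2((ebastine FPKM + 1)/(vehicle FPKM + 1)), had a median of -1.05 over the 10 genes, a 2.07-fold difference, beside -0.32 over the 1768 listed genes. Of the 10 genes 5 were at least 2-fold lower with ebastine, against 4.86% of the 1768, and 0 were at least 2-fold higher, against 1.81%. After centring, 2 of the 10 were at least 2-fold lower, and the 1768 listed genes then held 24 that were at least 2-fold lower and 121 at least 2-fold higher, so the balance of the listed genes depends on the scaling. At a limit of 1.5-fold the count with the values as deposited was 9, against 18.6% of the 1768. After centring 6 of the 10 passed that limit, for which no share of the listed genes was computed. Of the 10 genes 9 were lower at a q below 0.05 in the authors' deposited table, as were 25.4% of the 1947 genes, and 8 shared the smallest p-value of that table, 5e-05, a place held by 12.9% of the 1947 in the lower direction. That test was made on 1 library per group and compares these libraries, not the treatments. In bulk RNA, fewer cells in G2 and mitosis and less of each transcript per cell cannot be told apart.

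**Figure D1:**
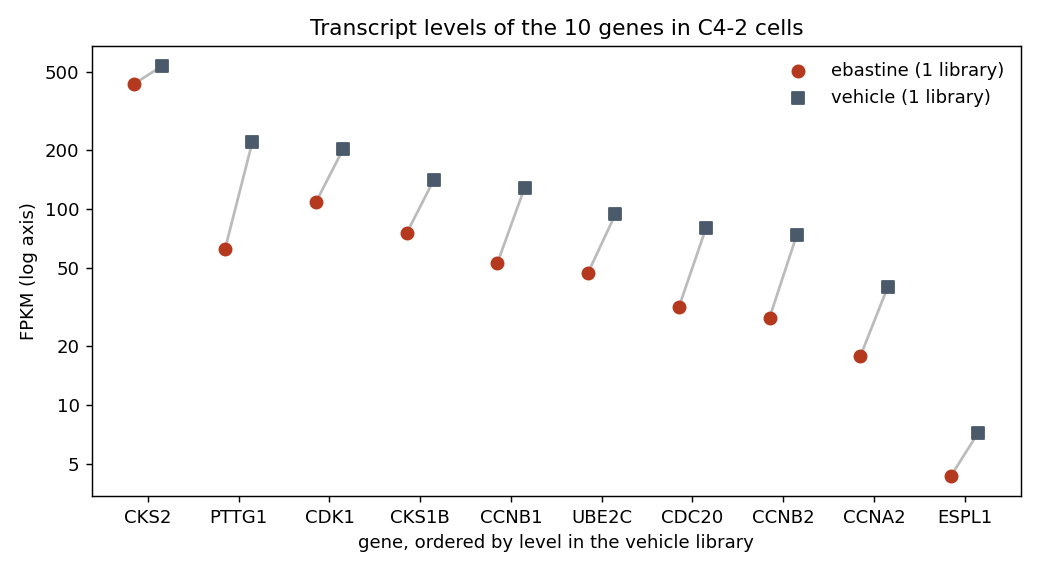
Level of each gene in FPKM (log axis) in the ebastine library (circles, left of each pair) and the vehicle library (squares), with a grey line joining the 2 values of a gene. With the values as deposited, the ebastine value is the lower of the pair in all 10 genes (9 after centring, when CKS2 turned), with the widest gap for PTTG1 (62.8 against 220.3 FPKM) and the narrowest for CKS2 (438 against 536 FPKM).

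Promoters of genes of this class are known to carry a cell cycle genes homology region (CHR), bound by MuvB complexes, often downstream of CCAAT boxes, which bind the factor NF-Y. RefSeq promoters (build GRCh38.p14, 250 bases before to 50 bases after a start) were found for 9 of the 10 genes, as 11 promoters, since PTTG1 and CDK1 have 2 starts each. UBE2C had none in the table. The letters TTTGAA or TTCGAA (CHR), CCAAT, and TTTGGCGC, TTTCCCGC or TTTCGCGC (E2F-like) were sought on both strands. The 120 bases before the start are shown for 7 promoters. The first 6, 1 for each gene with a match to these CHR letters, hold both such a match and CCAAT boxes. The last, of the gene with the lowest ratio, holds CCAAT boxes and no match to these CHR letters. Other CHR letters were not sought. This window of PTTG1 does hold TTTAAA, 1 letter from TTTGAA, downstream of its CCAAT boxes, left in small letters below. Capitals mark matches on either strand, so that ATTGG is CCAAT and TTCAAA is TTTGAA on the opposite strand, and the bases CCAATTGG in PTTG1 are 2 overlapping CCAAT matches.
CCNB2: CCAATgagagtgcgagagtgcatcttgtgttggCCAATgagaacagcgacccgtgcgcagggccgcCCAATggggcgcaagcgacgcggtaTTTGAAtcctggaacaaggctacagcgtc
CKS1B: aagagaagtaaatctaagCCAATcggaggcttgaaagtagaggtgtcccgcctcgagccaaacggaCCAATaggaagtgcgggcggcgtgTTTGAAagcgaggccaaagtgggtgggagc
CDC20: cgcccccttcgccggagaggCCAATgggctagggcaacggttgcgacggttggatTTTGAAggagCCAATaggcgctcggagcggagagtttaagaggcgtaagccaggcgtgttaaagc
ESPL1: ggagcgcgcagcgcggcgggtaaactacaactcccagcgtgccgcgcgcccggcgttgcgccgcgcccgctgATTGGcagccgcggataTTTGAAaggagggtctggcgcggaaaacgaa
CDK1: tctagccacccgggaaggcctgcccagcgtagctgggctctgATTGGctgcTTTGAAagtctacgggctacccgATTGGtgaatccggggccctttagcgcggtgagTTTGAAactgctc
CKS2: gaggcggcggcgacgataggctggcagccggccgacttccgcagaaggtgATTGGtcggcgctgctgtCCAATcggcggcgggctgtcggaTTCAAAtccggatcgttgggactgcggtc
PTTG1: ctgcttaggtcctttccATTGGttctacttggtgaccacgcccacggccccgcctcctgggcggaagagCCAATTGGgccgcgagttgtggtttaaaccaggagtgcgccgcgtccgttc
On the plus strand of GRCh38.p14 these are chr15:59105026-59105145 for CCNB2, chr1:154974561-154974680 for CKS1B, chr1:43358861-43358980 for CDC20, chr12:53268179-53268298 for ESPL1, chr10:60778358-60778477 for the downstream start of CDK1, chr9:89311075-89311194 for CKS2 and chr5:160421735-160421854 for the upstream start of PTTG1.

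A CCAAT match lay in a promoter of all 9 genes found and of 39.7% of the 27305 genes in the table. A CHR match lay in a promoter of 6 of the 9 and of 19.5% of the genes in the table, and the E2F-like letters in 1 of the 9, CDK1, and in 3.30%. Counted by promoter, a CHR and a CCAAT match were both present in 7 of the 11 promoters of these genes and in 6.38% of the 35116 in the table. In ESPL1, CCNB2, CKS1B and CKS2 the CHR began 31, 29, 30 and 29 bases before the start. The nearest CCAAT match upstream of it began 17 bases farther from the start in ESPL1, 25 in CCNB2, 24 in CKS1B and 23 in CKS2. The other genes with a CHR differed from these in position. In CDC20 the CHR began 65 bases before the start, with a CCAAT match 35 bases farther, and another CHR began 178 bases before the start. At the downstream start of CDK1, CHR matches began 69 and 13 bases before the start, with CCAAT matches 9 and 33 bases farther, and a further one lay after the start. At its upstream start the CHR began 161 bases before the start with no CCAAT match upstream of it. No match to these CHR letters lay in the windows of PTTG1, CCNB1 and CCNA2, which says only that these exact letters are not there. The windows of PTTG1 and CCNB1 hold TTTAAA, and that of CCNA2 holds CTTGAA. Each lies downstream of a CCAAT match and differs from TTTGAA in 1 letter. These letters were not counted in other promoters. The 6 genes with a match had log2 ratios between -1.37 (CCNB2) and -0.29 (CKS2). The 3 without had -1.79 (PTTG1), -1.26 (CCNB1) and -1.12 (CCNA2). This split rests on the letters sought, so no comparison of the 2 sets is drawn from it. A match describes the sequence and is no measurement of binding.

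**Figure D2:**
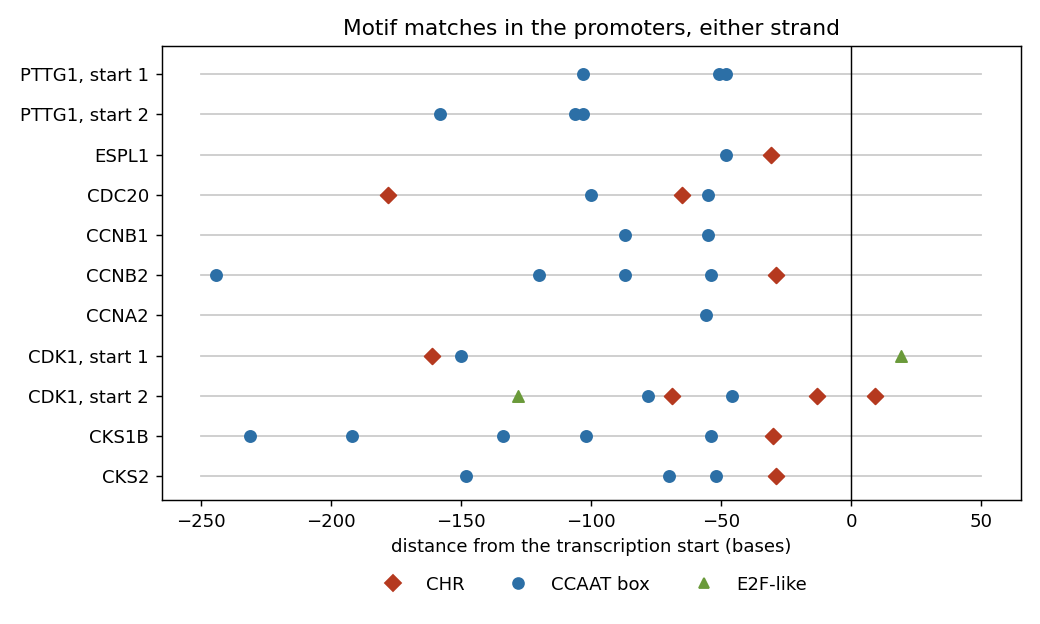
Positions of matches to CHR (diamonds), CCAAT (circles) and E2F-like letters (triangles) on either strand, as distance in bases from the transcription start at 0, in the 11 promoters found. In ESPL1, CCNB2, CKS1B and CKS2 a CHR lies 29 to 31 bases before the start with a CCAAT match upstream of it. In CDC20 and CDK1 the CHR matches lie elsewhere (65 bases before the start in CDC20). PTTG1, CCNB1 and CCNA2 show CCAAT matches only, with TTTGAA and TTCGAA the only CHR letters sought.

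Among the cyclins, CCNB2 had the lowest ratio and CCNA2 the lowest level. CCNB2 (hg19 chromosome 15, 59397284 to 59417244) was at 28.0 FPKM in the ebastine library and 74.0 FPKM in the vehicle library, a log2 ratio of -1.37 and 37.8% of the vehicle level. CCNB1 (hg19 chromosome 5, 68462837 to 68474070), whose product is the main mitotic partner of CDK1, was at 53.0 FPKM with ebastine and 129 FPKM with vehicle, a log2 ratio of -1.26 and 41.2% of the vehicle level. Both B-type cyclins were thus more than 2-fold lower, and their own proportion moved little, with 1.89 FPKM of CCNB1 for each FPKM of CCNB2 in the ebastine library and 1.74 in the vehicle library. CCNA2 was at 17.7 FPKM with ebastine and 39.8 FPKM with vehicle, a log2 ratio of -1.12. Its reported hg19 locus (chromosome 4, 122722472 to 122745088) is 22.6 kb long, against 7.44 kb for the RefSeq gene in GRCh38. The neighbouring gene EXOSC9 overlaps CCNA2 by 578 bases there, and the stretch covering both is 22.6 kb. The strand setting is not given, so reads in the overlap cannot be assigned to either gene.

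CDK1 (hg19 chromosome 10, 62538089 to 62554610) was at 108 FPKM in the ebastine library and 203 FPKM in the vehicle library, a log2 ratio of -0.90. It was 1.86-fold lower and did not reach the limit of 2-fold that all 3 cyclin genes passed. After centring only CCNB2 of the 3 passed it, with CCNB1 at -0.92 and CCNA2 at -0.79 beside CDK1 at -0.55. Its cyclin partners were lower relative to it as well: for each FPKM of CDK1 there were 0.489 FPKM of CCNB1 in the ebastine library and 0.635 in the vehicle library. For CCNB2 the proportion to CDK1 was 0.258 with ebastine and 0.365 with vehicle, and for CCNA2 it was 0.164 with ebastine and 0.197 with vehicle. These proportions are descriptions of 1 library each.

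The CKS genes encode closely related proteins, and their transcripts differed by unlike amounts. CKS1B (hg19 chromosome 1, 154947118 to 154951725), whose product also helps the ligase SCF-SKP2 recognise the inhibitor p27, was at 75.3 FPKM with ebastine and 141 FPKM with vehicle, a log2 ratio of -0.90. Its proportion to CDK1 was 0.695 in the ebastine library and 0.697 in the vehicle library, the steadiest of the pairs compared here. CKS2 (hg19 chromosome 9, 91926113 to 91931618) was the most abundant of the 10 transcripts, at 438 FPKM with ebastine and 536 FPKM with vehicle. Its log2 ratio of -0.29 was the smallest in size, and it was the gene past the limit of 0.05, with a q of 0.337 in the authors' deposited table. There were 5.81 FPKM of CKS2 for each FPKM of CKS1B in the ebastine library and 3.80 in the vehicle library. CKS2 made up 50.5% of the summed FPKM of the 10 genes with ebastine and 35.2% with vehicle. The sum of all 10 was 866 FPKM with ebastine and 1524 FPKM with vehicle, and without CKS2 it was 428 FPKM with ebastine and 988 FPKM with vehicle, or 43.4% of the vehicle level.

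Of the genes that trigger anaphase through APC/C, the activator gene was lower by more than the enzyme gene. CDC20 (hg19 chromosome 1, 43824626 to 43828873) was at 31.6 FPKM in the ebastine library and 80.3 FPKM in the vehicle library, a log2 ratio of -1.32 and a 2.49-fold difference. UBE2C (hg19 chromosome 20, 44441255 to 44445596) was at 47.4 FPKM with ebastine and 94.1 FPKM with vehicle, a log2 ratio of -0.98, just short of the limit of 2-fold at 1.97-fold lower, whereas the nearest gene past the limit was CCNA2 at 2.18-fold. There were 1.5002 FPKM of UBE2C for each FPKM of CDC20 in the ebastine library and 1.17 in the vehicle library.

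Securin and separase, the inhibitor and the protease it holds back, differed in both level and ratio. PTTG1 (hg19 chromosome 5, 159848865 to 159855746) was at 62.8 FPKM with ebastine and 220.3 FPKM with vehicle, so that 28.5% of the vehicle level was measured in the ebastine library. Its log2 ratio of -1.79 was second lowest of the 1768 listed genes, and its loss of FPKM was the 15th largest of the 1947. It was at place 4 of the 10 genes by level in the ebastine library, behind CDK1 and CKS1B, and at place 2 in the vehicle library, while the order of the other 9 among themselves was the same in both libraries. ESPL1 (hg19 chromosome 12, 53662083 to 53687427) was the least abundant of the 10, at 4.35 FPKM with ebastine and 7.23 FPKM with vehicle, a log2 ratio of -0.62. In the authors' deposited table its q was 0.0155. There were 14.4 FPKM of securin transcript for each FPKM of separase transcript in the ebastine library, and 30.5 in the vehicle library.

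Some of the 10 genes have near copies whose reads the authors' software could have split or shared. RefSeq names 7 pseudogenes of CKS1B, 5 of UBE2C, 2 of PTTG1, and 1 each of CDC20 and CCNB2, and PTTG1 also has the close relatives PTTG2 and PTTG3P. How reads that map to several places were handled is not given in the sources used here, so the levels of these genes are uncertain to that extent. For 8 of the 10 the reported locus was within 0.1 kb of the RefSeq gene length, and the exceptions were CCNA2 and CCNB1 (11.2 kb against 11.1 kb). By RefSeq coordinates LOC124901203 overlaps CCNB1, and the microRNA genes MIR4258 and MIR3153 overlap CKS1B and CKS2.

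**Figure D3:**
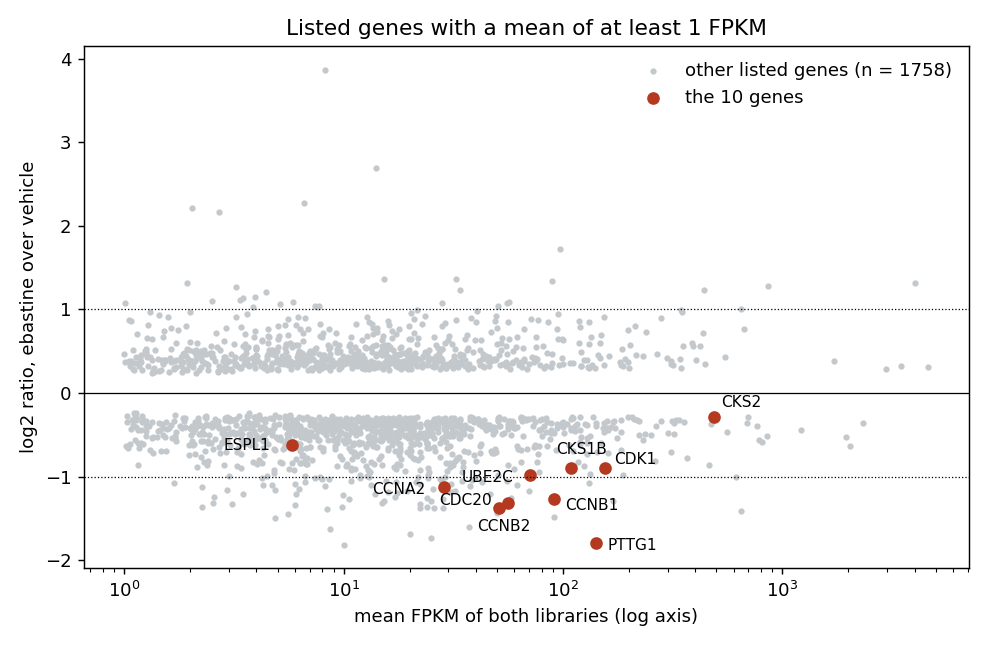
Log2 ratio of ebastine over vehicle against the mean FPKM of both libraries (log axis) for the 1768 listed genes averaging 1 FPKM or more, the 10 genes in red and dotted lines at 2-fold. The empty band around 0 comes from the filter of the table, PTTG1 lies near the lower edge at -1.79, and CKS2 lies at -0.29 at the inner edge of the lower genes.

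Genes that act with these 10 were taken from 9 lists holding 100 other genes in all. Of these 48 were listed, 47 lower and 1 higher with ebastine, beside 57% of the 1768 listed genes lower. After centring the counts were 43 and 5, for which no share of the listed genes was computed. With the values as deposited 29 were at least 1.5-fold lower and 1 at least 1.5-fold higher, beside 18.6% and 9.67% of the 1768. The median log2 ratio of the 48 was -0.66. Unlisted genes have no value here, so these medians describe the listed genes and overstate the difference of a whole list.

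Of 14 other APC/C subunits only CDC27, which binds CDC20, was listed, at 15.1 FPKM with ebastine and 21.3 FPKM with vehicle. Of 4 other APC/C partners 2 were listed. UBE2S, the enzyme that extends the chains UBE2C begins, was at 126 FPKM with ebastine and 250.04 FPKM with vehicle, a log2 ratio of -0.98 that lies beside that of UBE2C. The APC/C inhibitor gene FBXO5 was at 10.8 FPKM with ebastine and 17.4 FPKM with vehicle.

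APC/C substrates were listed almost in full, 12 of 13, all lower, 11 of them past 1.5-fold, and their median log2 ratio of -1.04 lay close to that of the 10 genes. HMMR, a spindle protein, PLK1, a mitotic kinase, and NEK2, a centrosomal kinase, had the lowest log2 ratios, -1.60, -1.38 and -1.25. The replication licensing inhibitor GMNN was at 39.7 FPKM with ebastine and 56.2 FPKM with vehicle, and the ribonucleotide reductase gene RRM2 had a log2 ratio of -0.67.

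Of 10 mitotic checkpoint genes, whose products restrain CDC20 until chromosomes are attached, 7 were listed, all lower and 5 by at least 1.5-fold, with a median of -0.91. The kinase gene TTK was at 8.16 FPKM with ebastine and 18.6 FPKM with vehicle, and the kinase gene BUB1 at 10.8 FPKM with ebastine and 23.7 FPKM with vehicle. BUB1B, which encodes BUBR1, had a log2 ratio of -0.98. The smallest differences were those of BUB3 and TRIP13, at log2 ratios of -0.39 and -0.42.

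Of 15 genes of cohesin and its protectors 7 were listed, all lower (SMC3 and PDS5B turned to 0.010 and 0.015 after centring) and 4 by at least 1.5-fold, with a median of -0.61. SGOL2 (SGO2), which shields cohesin at centromeres, was at 6.67 FPKM with ebastine and 15.0 FPKM with vehicle. RAD21, the cohesin subunit that separase cuts, was at 65.9 FPKM with ebastine and 103 FPKM with vehicle, a log2 ratio of -0.63 that lies beside that of ESPL1. SGOL1 (SGO1) had a log2 ratio of -0.62. The subunit SMC3 and the regulator PDS5B had the smallest differences, -0.33 and -0.32, and in the authors' deposited table their q exceeded 0.05.

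Of 11 genes of the CDK1 switch 8 were listed, all lower (ARPP19 turned to 0.028 after centring) and 4 by at least 1.5-fold, with a median of -0.65. They include both activators and inhibitors of CDK1. PLK1 had a log2 ratio of -1.38, and GTSE1 was at 8.10 FPKM with ebastine and 21.7 FPKM with vehicle. The phosphatase gene CDC25C, which activates CDK1, was at 4.53 FPKM with ebastine and 10.2 FPKM with vehicle, with a q of 0.190 in the authors' deposited table. MASTL and ARPP19, which hold back the phosphatase that opposes CDK1, had log2 ratios of -0.43 and -0.31.

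Of 11 other cyclin and kinase genes, most of them of G1 and S phase, 2 were listed. These were CCNF, whose product cyclin F is the F-box protein of a ubiquitin ligase and peaks in G2, at a log2 ratio of -0.51, and CDK2, the S phase partner of cyclin A2, at 38.1 FPKM with ebastine and 49.7 FPKM with vehicle. Of 8 genes on the list of CDK inhibitors 6 were listed, 5 lower and 1 higher. CDKN3, a phosphatase that acts on CDKs, was at 33.5 FPKM with ebastine and 81.6 FPKM with vehicle, and the INK4 inhibitor gene CDKN2C and the p27 gene CDKN1B had log2 ratios of -0.85 and -0.44. CDKN1A, which encodes p21, was the 1 higher gene of all 9 lists, at 45.5 FPKM with ebastine and 27.8 FPKM with vehicle, a log2 ratio of 0.69. CDKN2D, another INK4 gene, had a log2 ratio of -0.38.

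Of 15 genes of the DREAM and MuvB complexes and their activators 4 were listed, all lower (NFYB turned to 0.019 after centring). FOXM1, the transcription factor of G2 and mitosis, was at 19.0 FPKM with ebastine and 39.2 FPKM with vehicle, a log2 ratio of -1.01. MYBL2, which joins MuvB in S phase, was at 54.3 FPKM with ebastine and 97.3 FPKM with vehicle. The MuvB subunit LIN9 and the NF-Y subunit NFYB had log2 ratios of -0.54 and -0.29.

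**Figure D4:**
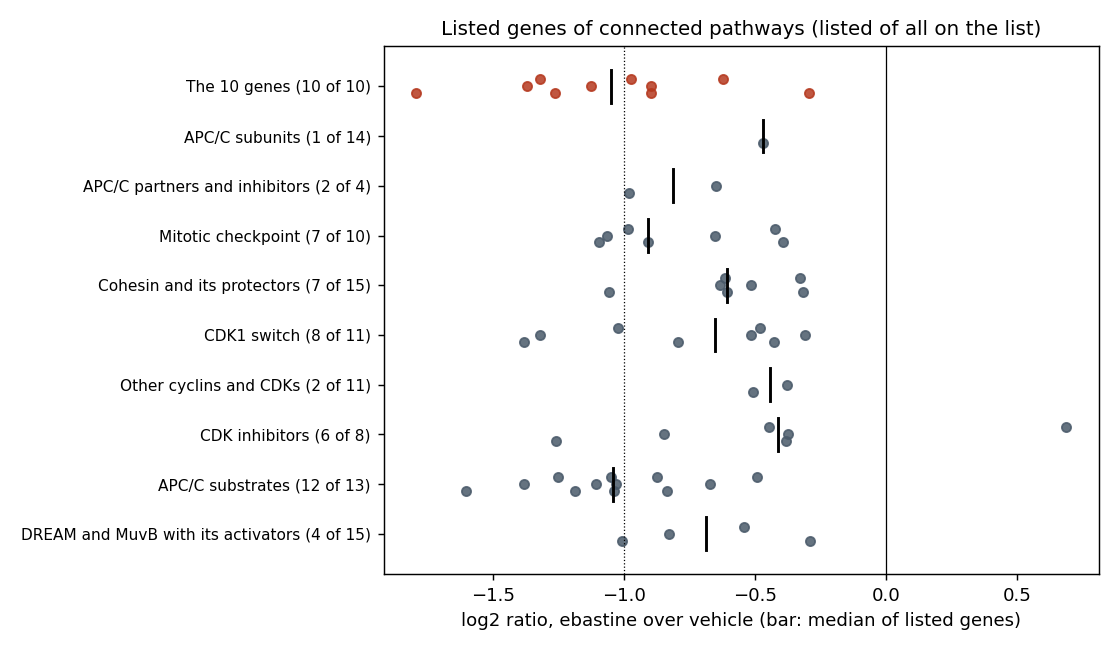
Log2 ratio of ebastine over vehicle of the 10 genes (top row, red) and of the listed genes of 9 connected lists (grey), with a bar at each median, a dotted line at 2-fold lower and the number listed of all genes on a list. Every listed gene lies below 0 except CDKN1A at 0.69 (and, after centring, SMC3, PDS5B, ARPP19, NFYB and CKS2), and the APC/C substrates have a median of -1.04 beside -1.05 for the 10 genes.

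The 5 other genes averaging 20 FPKM or more whose log2 ratios lay nearest to the median of the 10, over the 2 libraries, were CENPW at -1.05, TPX2 at -1.05, PRC1 at -1.05, CENPH at -1.06 and ANLN at -1.04. CENPW and CENPH encode centromere proteins, TPX2 a spindle assembly factor, PRC1 a midzone microtubule bundler and ANLN a cytokinesis scaffold. CENPW was at 35.7 FPKM with ebastine and 75.01 FPKM with vehicle, and PRC1 at 24.6 FPKM with ebastine and 51.9 FPKM with vehicle. A likeness over 2 libraries is a likeness of 1 ratio.

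Centring moved the ratio of each of the 10 genes by more than a pseudocount of 0.1 or 5 FPKM did. Multiplying the ebastine values by 1.27, which centres the listed genes averaging 10 FPKM or more on a ratio of 1 (a shift of 0.35 on the log2 scale), left 9 of the 10 lower and turned CKS2 to 0.055. The median of the 10 was then -0.71, with 2 genes, PTTG1 at -1.45 and CCNB2 at -1.03, still at least 2-fold lower. That centring treats the filtered table as if it were all genes. PTTG1 had the lowest ratio of the 10 under every setting tried.

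**Figure D5:**
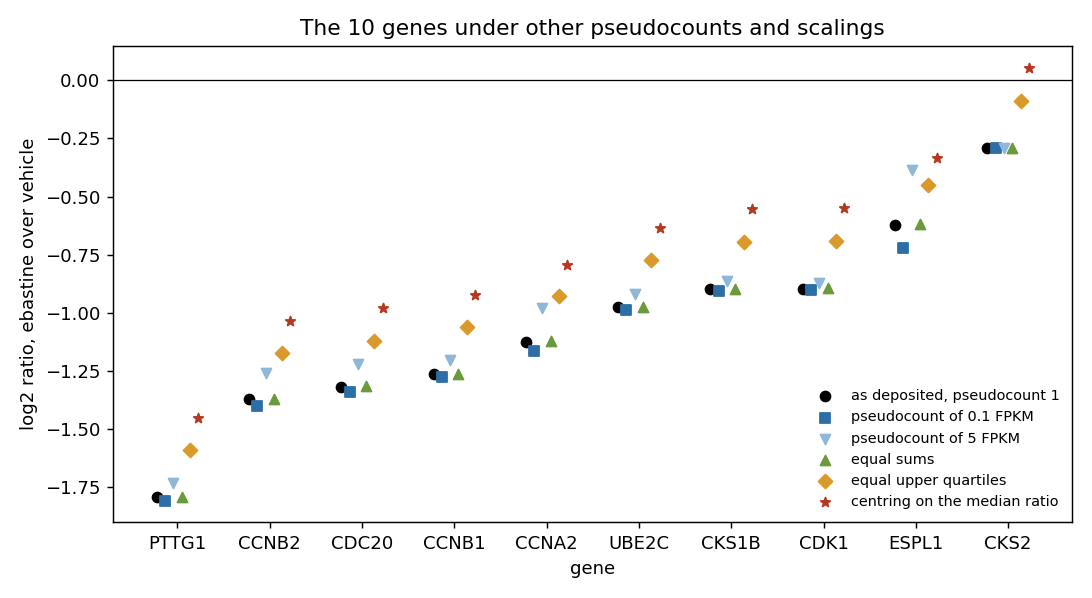
Log2 ratio of ebastine over vehicle of each of the 10 genes, ordered from lowest to highest, with the values as deposited and under 5 other pseudocounts and scalings. PTTG1 is lowest under each setting, and CKS2 crosses 0 after centring, at 0.055.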

How the data were processed

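Polyadenylated RNA of C4-2 cells was sequenced in 1 ebastine and 1 vehicle library. The submitters' processing notes name TopHat2, Cuffdiff and hg19 and give no version. The FPKM values, the log2 fold changes, the test statistic (a score, not used) and the p-values and q-values were made by the authors and deposited in 1 gene table; of gene models, strand setting, scaling and depth nothing is given in the sources used here. Per the file headers the columns belong to samples C and T, which the labels tie to vehicle and ebastine.

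From these values log2 ratios with a pseudocount of 1 FPKM, medians, counts past 2-fold and 1.5-fold and proportions between genes were computed with Python 3.11.15, pandas 2.3.3 and numpy 2.4.6. Ratios and fold differences understate the change of low genes. Locus starts were converted to count from 1. With 1 library per group no test of the treatment was run. The calculation was also run on simulated data with known changes, which checks the arithmetic and not the scaling, the filter or the design of 1 library per group. List members were matched by current and older names, and 1 list entry that names a protein form was merged with its gene.

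The 10 genes, the lists and the alternatives were chosen with earlier results of these data known. Named genes are the 10, up to 4 listed genes of a list or else its 3 lowest and 2 highest ratios, and the 5 nearest in ratio. Promoter sequences are from RefSeq, GRCh38.p14. Protein sequences were not used here.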

Additional observations from a re-analysis of the deposited data

How the results depend on the processing

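Pseudocounts of 0.1 and 5 FPKM, equal sums and the authors' own log2 fold changes left all 10 genes lower and the median log2 ratio of the 10 within 0.1 of -1.05. After centring on the median ratio it was -0.71 and with equal upper quartiles -0.85, since both multiply all ebastine values, by 1.27 and 1.15. CKS2 turned to 0.055 after centring. Of the 10 genes 5 were at least 2-fold lower, 2 after centring, and 9 were at least 1.5-fold lower, 6 after centring. For those 6 no share of the listed genes was computed. The count of 86 listed genes at least 2-fold lower became 126 with a pseudocount of 0.1 FPKM and 30 with one of 5 FPKM. It was 24 after centring, 45 with equal upper quartiles and 328 at 1.5-fold. At least 2-fold higher were 32 listed genes, and 56 with a pseudocount of 0.1 FPKM, 12 with one of 5 FPKM, 121 after centring, 74 with equal upper quartiles, 21 with a minimum mean of 5 FPKM and 171 at 1.5-fold. Of the genes on the 9 lists 29 were at least 1.5-fold lower, and 17 after centring. After centring 43 were still lower, and SMC3, PDS5B, ARPP19 and NFYB joined CDKN1A above 0. These centred counts of list genes also have no computed share of the listed genes beside them. No paired analysis was possible because each group held 1 library, and for the same reason no library could be left out. Depth is unknown.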

Other observations

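The CHR and CCAAT letters found in the promoters of the 10 genes were also counted in other listed genes, a count chosen after the promoters of the 10 were seen. Of 81 other listed genes past 2-fold in the lower direction with an average of 1 FPKM or more, 65 had a RefSeq promoter, and 30 of these (46.2%) held both a CHR and a CCAAT match at 1 or more starts. Of 32 listed genes past 2-fold in the higher direction 22 had a promoter, and 4 of these (18.2%) held both. Of the 1758 listed genes other than the 10, 1384 had a promoter, and 161 of these (11.6%) held both. Over the 27305 genes of the promoter table, listed or not, the share was 7.85%. Promoters were found for 80.2% of the lower, 68.8% of the higher and 78.7% of all listed genes, so each of these shares rests on an incomplete set. Genes with several starts have more chances of a match, and no test was made.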
